A study of Rattus norvegicus with 20 samples.

Results

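The comparison described here is between dorsal root ganglia (DRGs) of rats whose sciatic nerve was freed after entrapment and DRGs of rats whose nerve was still entrapped. DRGs hold the cell bodies of the sensory neurons, wrapped by satellite glia and lying among Schwann cells, vessels, connective tissue and resident immune cells. MicroRNAs (miRNAs) are short RNAs that pair through their seed, bases 2 to 8 of the mature strand, with sites in messenger RNAs and lower the output of those messengers. Several of them, among them miR-21 and the miR-221/222 pair, are known to respond in sensory ganglia to cutting of the nerve.

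The members were the 3 arrays labelled DRG decompression and the 3 labelled DRG entrapment, 6 of the 20 arrays of the series, chosen by their labels alone. All animals were male Sprague-Dawley rats. In both groups a non-constrictive silastic tube had been placed around the right sciatic nerve for 6 months, and in the decompression group it was then removed and the animals were kept for 3 more months. The ganglia of the lumbar segments 4 to 6 on the operated side were taken whole, so each array gives a mixture of cell types, and fewer cells of a type cannot be told apart from less RNA per cell. The decompressed rats were also 3 months further from the placing of the tube, and age or time since surgery cannot be told apart from decompression. The methods give 3 rats per group for the arrays, the labels call the arrays experimental replicates, and no sham array entered the comparison.

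A difference was not detected for any single miRNA. Of 350 miRNAs on the array, 191 were detected on at least 3 of the 6 arrays and tested, and 0 passed limma's moderated test at a Benjamini-Hochberg adjusted p of 0.05 in either direction (0% called, smallest adjusted p 0.997). Before adjustment, 6 miRNAs had a p under 0.05, all of them higher after decompression. They are a smaller share of the 191 than the 0.05 that such a cut passes where no miRNA differs. Their common direction was not stable, with 5 of 11 higher without entrapment 1. An ordinary linear model without limma's prior also called 0 (7 before adjustment). No miRNA was 2-fold higher or lower on every array or in the group means. The largest positive differences were those of the red blood cell miRNAs miR-451 and miR-144, the leukocyte miRNAs miR-142-5p, miR-142-3p and miR-223, miR-383 and miR-19a, followed by the muscle miRNA miR-1 and the neighbouring miR-34c and miR-34b. The neuronal, glial, let-7 and miR-29 signals lay close to equality.

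The direction of every difference rests on which name is right. The signed values here follow the labels of the scanner files. In the authors' processed table, the columns named entrapment 1, 2 and 3 hold the values of the scanner files labelled decompression 1, 2 and 3, and the columns named decompression 1, 2 and 3 hold those of entrapment 3, 1 and 2, each up to one constant per array and within 0.00216%. If the names in that table are the right ones, each sign given here turns round and its size stays as it is.

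The mature strands of some of the miRNAs named in the text are printed below, because several of them share a seed or a transcript. None of them passed the test. They come from RefSeq on the rat build GRCr8, which gave a sequence for 120 of the 191 tested miRNAs under their current names. Each is written 5′ to 3′ with the seed, bases 2 to 8, in capitals. The first lines are the leukocyte pair, the miR-34 family, miR-19a and the cluster of miR-106b, miR-93 and miR-25. The last lines are miR-16, the pair miR-384-5p and miR-30c, and miR-7a.
miR-142-5p: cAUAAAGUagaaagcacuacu
miR-142-3p: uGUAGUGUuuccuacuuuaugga
miR-34a: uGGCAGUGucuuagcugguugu
miR-34b: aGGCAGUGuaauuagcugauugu
miR-34c: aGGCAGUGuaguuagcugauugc
miR-19a: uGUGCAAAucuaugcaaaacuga
miR-106b: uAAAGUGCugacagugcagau
miR-93: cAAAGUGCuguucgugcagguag
miR-25: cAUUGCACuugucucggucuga
miR-16: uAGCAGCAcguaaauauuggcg
miR-384-5p: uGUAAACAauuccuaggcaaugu
miR-30c: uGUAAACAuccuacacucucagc
miR-7a: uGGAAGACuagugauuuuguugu

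Signals are the scanner's total gene signal after background subtraction, scaled so that every array has the same 75th percentile. The scaled signal has no unit and depends on each miRNA's probes, so it is compared between arrays and not between miRNAs. Differences are on the log2 scale, decompression minus entrapment, and carry limma's standard error (SE) with n = 3 arrays per group. The unscaled 75th percentile was 70.5, 73.5 and 85.2 on the entrapment arrays and 74.9, 83.5 and 75.1 on the decompression arrays, a mean of 76.4 ± 7.78 against 77.8 ± 4.90 (SD, n = 3, p = 0.80 by an exact two-sided permutation test). The arrays of the entrapment group detected 185, 185 and 187 miRNAs and those of the decompression group 202, 192 and 188. All 3 decompression arrays thus exceeded all 3 entrapment arrays, with a mean of 194 ± 7.21 against 185.7 ± 1.15 (SD, n = 3), and the exact two-sided permutation p of 0.10 is the smallest that 3 against 3 can give. Of the miRNAs whose number of detections differed, 24 were detected on more decompression arrays and 6 on more entrapment arrays. The scanner's own error of the unscaled signal had a median of 3.09, 2.84 and 4.17 on the entrapment arrays. On the decompression arrays it was 2.54, 2.915 and 2.918 (p = 0.30 by the same permutation test). Decompression 1 had the lowest error and the most detections. The part of this error in the number of detections was not tested.

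The tissue carried the miRNAs of sensory ganglia. The sensory cluster of miR-183, miR-96 and miR-182 and the neuronal miR-124 and miR-9 were detected on all 6 arrays. The unscaled signal of miR-124 was 590 to 819 in the DRGs and at or below 0 on the 10 soleus muscle arrays of the series. The muscle miRNA miR-1 gave 22.3 to 69.3 in the DRGs against 4895 or more in soleus. Another muscle miRNA, miR-499, did not separate the tissues, at 10.9 to 22.8 in the DRGs and 1.26 to 193.5 in soleus. MiR-208 was detected on none of the 6 DRG arrays and on none of the 10 soleus arrays, so it does not tell the tissues apart. Arrays of different groups were about as alike as arrays of the same group. Over the 174 miRNAs detected on all 6, Pearson's r of the log2 signals was 0.990 to 0.993 within entrapment, 0.989 to 0.995 within decompression and 0.985 to 0.995 between the groups. The median root mean square difference between 2 arrays was 0.376 and 0.296 on the log2 scale within the groups and 0.285 between them.

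**Figure D1:**
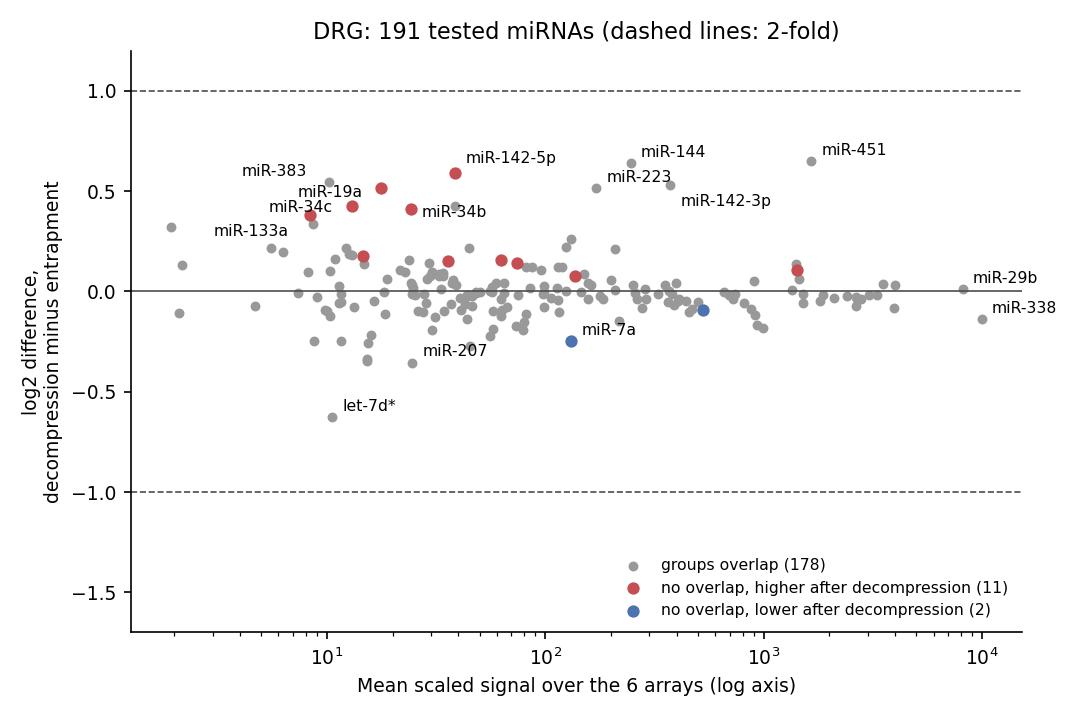
Log2 difference, decompression minus entrapment, against the mean scaled signal over the 6 arrays (log axis), 1 point per tested miRNA (191). Coloured points are the miRNAs whose 3 decompression and 3 entrapment values do not overlap, 11 higher and 2 lower, and no point reaches the dashed lines at 2-fold.

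The plot of differences against signal shows how narrow the comparison was. Differences ran from -0.63 for let-7d*, a dim opposite strand of let-7d, to 0.65 for miR-451, and 171 of 191 lay within 0.25 of 0. The median was -0.01, with 83 miRNAs above 0 and 108 below it. The size of change that the arrays could have missed is set by the intervals. The 95% interval of limma lay within 2-fold either way for 177 of the 191 miRNAs (92.7%) and within 1.5-fold for 149, with a median SE of 0.11. The interval reached 2-fold for the other 14, and 7 of these were not detected on all 6 arrays. Among the miRNAs detected on all 6, the absolute difference of the means exceeded the SD of both groups for 23 of 174.

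Groups that did not overlap were few. For 11 miRNAs all 3 decompression values lay above all 3 entrapment values (5.76% of those tested), and for 2 they lay below (1.05%). Where nothing differs, 3 against 3 values separate in either direction with a probability of 0.10. The 13 are a smaller share of the 191 tested than that. The higher ones were miR-142-5p, miR-19a, miR-34c, miR-34b, miR-133a, miR-22*, miR-25, miR-93, miR-384-5p, miR-16 and miR-106b, and the lower ones miR-7a and miR-30c. The scanner gives an error for each signal, and for 6 of these 13 the difference of the group means was larger than the largest such error among the 6 arrays. These were miR-142-5p, miR-19a, miR-34b, miR-25, miR-384-5p and miR-7a. Of the 13, 0 kept their separation under all 5 other scalings. The separations of miR-19a, miR-34b, miR-34c and miR-133a were kept under 4 of the 5, those of miR-384-5p and miR-7a under 3, that of miR-142-5p under 2, those of miR-16, miR-22*, miR-93 and miR-30c under 1, and those of miR-25 and miR-106b under 0.

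**Figure D2:**
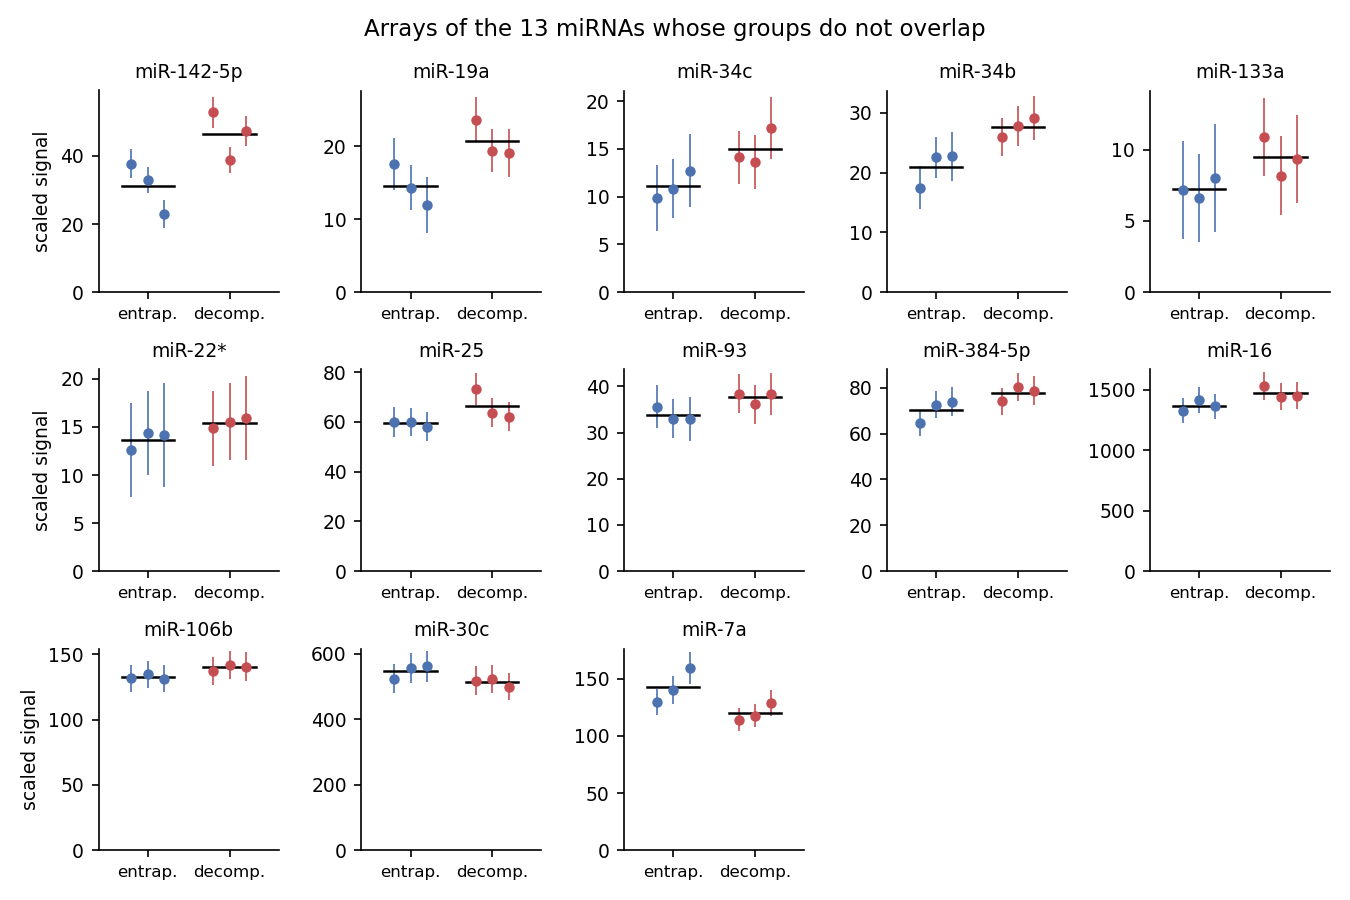
Scaled signal on each array for the 13 miRNAs whose groups do not overlap, entrapment in blue and decompression in red, with the scanner's own error of each signal as the bar and the group mean as the line. For miR-142-5p entrapment lies at 22.9 to 37.7 and decompression at 38.8 to 52.8, and the bars of the nearest arrays overlap, while for miR-22* and miR-133a the bars are larger than the difference of the means.

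Of the leukocyte miRNAs, 6 of 6 measured had a difference above 0, and 0 passed the test. MiR-142 is a miRNA of blood cell lineages, and its 2 strands span chr10:73055119-73055177 on the plus strand, inside the gene span of Tspoap1. Its 5p strand gave 37.7, 32.9 and 22.9 on the entrapment arrays and 52.8, 38.8 and 47.4 on the decompression arrays. The decompression values all lay above the entrapment values, the nearest by less than the scanner's error, and under quantile normalization, the percentile over miRNAs detected on all 6 arrays and loess the groups overlapped. The log2 difference was 0.59 ± 0.21 (SE), with a limma adjusted p of 0.997 and an unadjusted p of 0.022. Its 3p strand, read by separate probes, gave 380, 302 and 240 against 454, 380 and 480, a log2 difference of 0.53 ± 0.23 (SE, limma adjusted p 0.997). Here decompression 2 met entrapment 1.

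MiR-223, a miRNA of myeloid cells, was even across the entrapment arrays at 135, 138 and 136 and spread across the decompression arrays at 130, 200 and 283. Decompression 1 was thus the lowest of all 6, and the difference of 0.51 ± 0.26 (SE, limma adjusted p 0.997) came from decompression 2 and 3. MiR-150, a lymphocyte miRNA, differed by 0.22, miR-146a by 0.12 and miR-146b by 0.04, the latter pair being induced by inflammatory signalling. Over the list 1 of 6 had groups that did not overlap, higher after decompression (beside 5.76% of all tested miRNAs), and the median was 0.37 beside -0.01 over all tested miRNAs. The seventh listed, miR-155, was not measured under that name. The summed signal of the 6 was 627 to 711 on the entrapment arrays and 834 to 1015 on the decompression arrays. Leaving out 1 array at a time gave medians from 0.20 (without decompression 3) to 0.41 (without decompression 2), and 4 of 6 members above 0 without entrapment 1.

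Red blood cell miRNAs varied strongly between arrays. MiR-451 and miR-144 are made from one erythroid transcript, and both were detected on all 6 arrays. MiR-451 gave 2247, 931 and 709 after entrapment and 3305, 1562 and 1109 after decompression. The highest array of each group exceeded the lowest of the same group more than the groups differed. Its log2 difference was 0.65 ± 0.53 (SE, limma adjusted p 0.997), and that of miR-144 was 0.64 ± 0.58 (SE, limma adjusted p 0.997) from signals of 361, 134 and 93.4 against 519, 216 and 153. Without decompression 1 the differences were 0.21 for miR-451 and 0.14 for miR-144, and without entrapment 1 they were 1.139 and 1.205. The list's summed signal was 802 to 2609 after entrapment and 1262 to 3823 after decompression. Decompression 3 had the lowest miR-451 of its group and the highest miR-142-3p and miR-223 of all 6 arrays. Decompression 1 had the highest miR-451 and the highest miR-142-5p of all 6. From entrapment 1 to entrapment 3 both strands of miR-142 fell, as miR-451 did, while miR-150, miR-146a and miR-146b rose. The part of blood left in the ganglia in the leukocyte values was not tested.

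**Figure D3:**
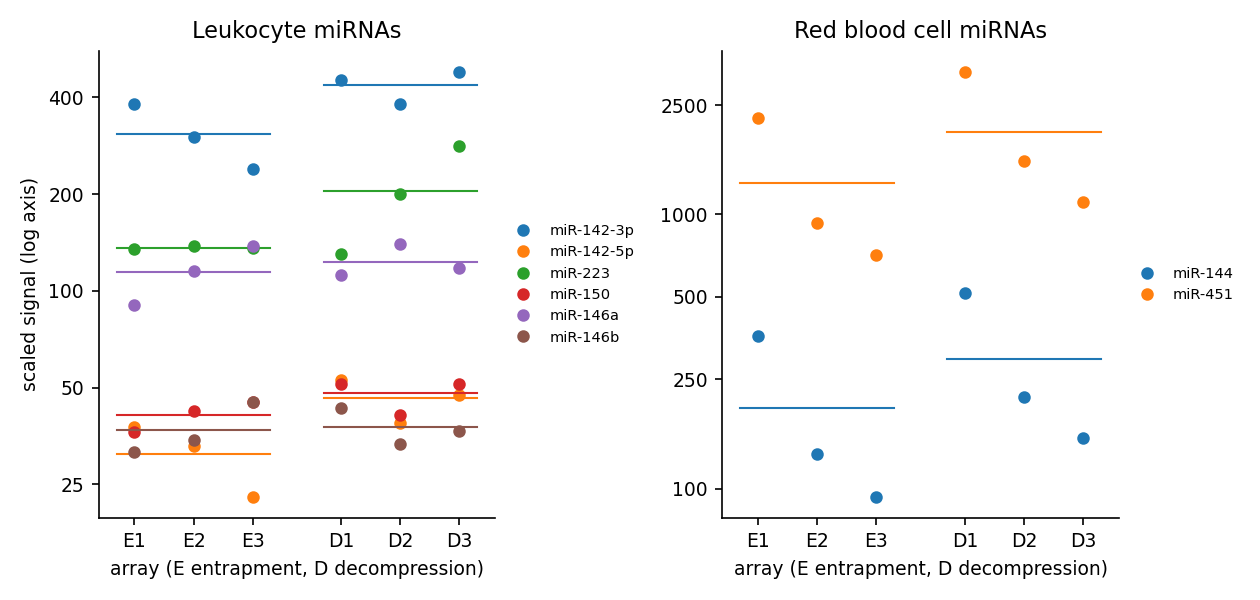
Scaled signal (log axis) of the 6 leukocyte miRNAs (left) and the 2 red blood cell miRNAs (right) on entrapment arrays E1 to E3 and decompression arrays D1 to D3, with group means as lines. MiR-142-5p separates by group, while miR-451 and miR-144 are highest on E1 among the entrapment arrays and on D1 among the decompression arrays.

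The miR-34 family stood next. These miRNAs are targets of p53 and share the seed shown above, and miR-34b and miR-34c come from one transcript, their mature strands spanning chr8:60306133-60306679 on the minus strand, 502 bases apart and inside the gene span of Hoatz. MiR-34b gave 17.5, 22.6 and 22.7 after entrapment and 26.0, 27.8 and 29.2 after decompression, with no overlap and a log2 difference of 0.41 ± 0.15 (SE, limma adjusted p 0.997, unadjusted p 0.024). MiR-34c gave 9.87, 10.8 and 12.7 against 14.1, 13.6 and 17.2, again with no overlap and a log2 difference of 0.43 ± 0.19 (SE, limma adjusted p 0.997). The dim signal of miR-34c had scanner errors of 2.78 to 3.85, about the difference of the means of 3.82. MiR-34a, made from its own gene on chromosome 5, gave 1181, 1359 and 1470 against 1463, 1422 and 1508, a difference of 0.14, with overlap. The mature strands of miR-34b and miR-34c are nearly alike, so their probes may read each other in part. Leaving out 1 array at a time kept all 3 members above 0, with medians of 0.29 to 0.48.

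The miR-17-92 cluster and its paralogs, which promote cell division in many tissues, were mostly above 0 too. Of 12 listed, 10 were tested, 8 were above 0, 0 passed the test and 4 had groups that did not overlap (beside 5.76% of all tested miRNAs), with a median of 0.10 beside -0.01 over all tested miRNAs. Without decompression 1 the median was 0.04 beside 0.03 over all tested miRNAs, and without entrapment 3 it was 0.07. MiR-19a gave 17.6, 14.3 and 12.0 after entrapment and 23.7, 19.4 and 19.1 after decompression, a log2 difference of 0.51 ± 0.15 (SE, limma adjusted p 0.997, unadjusted p 0.0079, the smallest of all). It lies at chr15:98588179-98588201 on the plus strand, and its 4 tested neighbours in the cluster, miR-17, miR-20a, miR-19b and miR-92a, differed by 0.09, 0.11, 0.09 and 0.12, all with overlap. MiR-19b has the same seed as miR-19a. The other 3 without overlap form one cluster inside the gene span of Mcm7, a replication gene, at chr12:22156652-22157123 on the minus strand. Of the 5 other scalings, the separation of miR-25 and miR-106b was kept under 0, that of miR-93 under 1 and that of miR-19a under 4. MiR-25 gave 60.0, 60.1 and 58.1 against 73.3, 63.8 and 62.2, a difference of 0.16 ± 0.08 (SE). MiR-93 gave 35.6, 33.0 and 32.9 against 38.4, 36.1 and 38.4 (0.15 ± 0.07, SE), and miR-106b 132, 135 and 131 against 137, 142 and 141 (0.08 ± 0.06, SE). These differences are small beside the signal, and those of miR-93 and miR-106b are smaller than the scanner's error of a single signal. Of the 5 tested miRNAs with the seed of miR-93 and miR-106b, miR-20b-5p lay below 0 (-0.09).

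Muscle miRNAs were mostly above 0, at low signal apart from miR-133b. MiR-133a, a muscle miRNA, gave 7.15, 6.61 and 7.99 after entrapment and 10.9, 8.18 and 9.33 after decompression, with no overlap and a log2 difference of 0.38 ± 0.15 (SE, limma adjusted p 0.997, unadjusted p 0.033). Its scanner errors were 2.74 to 3.80, larger than the difference of 2.22. MiR-1, which lies 2432 bases from it, differed by 0.43 with values of 24.3, 28.3 and 44.4 against 29.8, 35.05 and 71.0, and decompression 3 was the highest by far. MiR-133b, which shares the seed of miR-133a, differed by 0.21, with values of 165, 192 and 223 against 220, 203 and 246. The mature strands of miR-133a and miR-133b differ only at the last base, and whether their probes read each other was not tested. Of the list of 6, 5 were tested, 4 were above 0, miR-499 was below (-0.22), and the median was 0.21. The median was 0.14 without decompression 3, 0.45 without entrapment 3 and 0.11 under quantile normalization. The list's summed signal was 228 to 313 after entrapment and 281 to 353 after decompression, and miR-208 was not detected. The part of muscle around the ganglia in these values was not tested.

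MiR-383 was the only miRNA detected on all arrays of one group and none of the other. It was detected on 3 of 3 decompression arrays, at 10.2, 12.1 and 13.7, and on 0 of 3 entrapment arrays, at 6.92, 6.60 and 12.0. Entrapment 3 was thus not called at 12.0, with a scanner error of 3.80, while decompression 1 was called at 10.2, with an error of 2.66. The part of the scanner's error in these calls was not tested. The ratio of the geometric means was 1.46-fold, with the entrapment arrays entered at their own signals although these were not called detected. It is an estimate and not a lower bound. The values overlapped all the same, since entrapment 3 exceeded decompression 1. The limma log2 difference was 0.54 ± 0.22 (SE, adjusted p 0.997), and without entrapment 3 it was 0.82 with an adjusted p of 0.0835, the smallest in any setting tried.

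The remaining miRNAs without overlap were small in size. MiR-16, which is abundant in blood cells and elsewhere, gave 1329, 1416 and 1365 against 1531, 1443 and 1454, a log2 difference of 0.11 ± 0.07 (SE). Its neighbour miR-15b differed by 0.26 with overlap, and the 3 other tested members with their seed, miR-195, miR-497 and miR-322, lay below 0, at -0.10, -0.05 and -0.15. MiR-384-5p gave 64.5, 72.6 and 73.9 against 74.0, 80.2 and 78.6 (0.14 ± 0.09, SE), and miR-22*, the dim opposite strand of miR-22, differed by 0.18 where miR-22 itself differed by -0.05. The 2 below were miR-7a and miR-30c. MiR-7a, a neuronal and endocrine miRNA, gave 130, 140 and 159 after entrapment and 114, 118 and 129 after decompression, a log2 difference of -0.25 ± 0.14 (SE, limma adjusted p 0.997). Its highest decompression value lay just under its lowest entrapment value. MiR-30c gave 524, 555 and 562 against 518, 523 and 500 (-0.09 ± 0.06, SE). MiR-30c and miR-384-5p carry the same seed and lay on opposite sides of 0.

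The neuronal miRNAs were close to even. MiR-183, miR-96 and miR-182, the cluster of sensory cells, differed by 0.00, -0.02 and 0.03. MiR-96 gave 1720, 1960 and 1956 after entrapment and 1896, 1786 and 1874 after decompression. Of the 16 neuronal miRNAs listed, 10 were tested, 3 above 0 and 7 below, with 0 passing and a median of -0.03. Their differences ran from -0.25 to 0.12, and 1 of the 10, miR-7a, had groups without overlap, lower after decompression (beside 1.05% of all tested miRNAs). When 1 array was left out, 1 to 7 of the neuronal miRNAs were above 0. MiR-124, the most neuron-specific of them, gave 644, 709 and 739 against 727, 654 and 688, a difference of -0.02 ± 0.08 (SE) with a 95% interval of -0.20 to 0.17. The 28 tested miRNAs of the imprinted Dlk1-Dio3 locus, many of them known from neurons, had 8 above 0 and 20 below, a median of -0.03 and a range of -0.25 to 0.22, with 0 passing. That split was unstable, with 13 of 28 above 0 without scaling and 5 to 18 when 1 array was left out (5 without entrapment 1, 18 without entrapment 3).

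Glial and injury miRNAs did not separate either. MiR-338, of Schwann cells and oligodendrocytes, had the highest signal of all, 9391, 11150 and 10732 after entrapment and 9515, 10150 and 8767 after decompression, a difference of -0.14 ± 0.10 (SE). Of the 3 tested in the glial list 1 was above 0, and the median was -0.08, with the sign turned without entrapment 3 (0.10) and without decompression 2 (0.07) or 3 (0.06). In the nerve injury list, 5 of 6 were tested, all 5 above 0 with overlap, 0 passing, and a median of 0.14. MiR-21 gave 778, 1026 and 864 against 862, 958 and 925 (0.05 ± 0.10, SE), and miR-221 gave 31.2, 33.4 and 35.2 against 32.8, 33.3 and 34.4 (0.01 ± 0.07, SE). MiR-31 differed most, by 0.34 ± 0.27 (SE), at a signal under 11 on every array. Without entrapment 1, 3 of the 5 were above 0 with a median of 0.04, and without decompression 2 the median was 0.03.

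**Figure D4:**
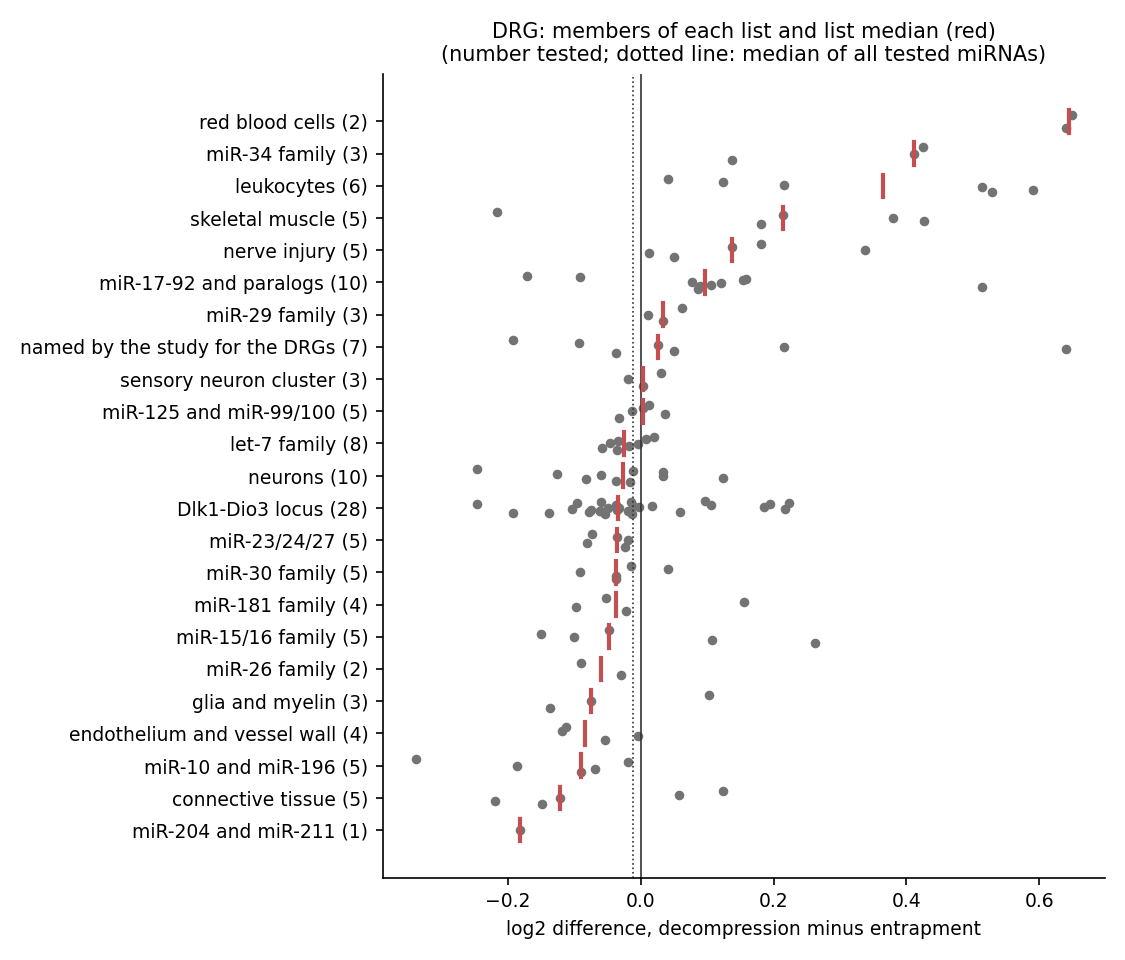
Log2 difference, decompression minus entrapment, of the tested members of each list (grey points) with the list's median (red line), the number tested in brackets and the median of all tested miRNAs as a dotted line. The red blood cell, miR-34 and leukocyte lists have medians of 0.65, 0.41 and 0.37, and the other 20 lie between -0.18 and 0.21.

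Differences in the large families were small. The 10 miRNAs with the highest signal were miR-338, miR-29b, miR-29a, miR-23b, miR-125b-5p, miR-24, let-7c, miR-27a, let-7a and miR-27b, and apart from miR-338 their differences lay between -0.08 and 0.04. All 8 let-7 members lay between -0.06 and 0.02, and the 3 miR-29 members between 0.01 and 0.06. The 5 of the miR-23/24/27 clusters were all slightly below 0, at -0.08 to -0.02, with 3 of 5 above 0 without entrapment 2. MiR-10 and miR-196 members, which lie in the Hox clusters, were below 0 for 5 of 5 with a median of -0.09, but 3 of 5 were above 0 without decompression 1 (median 0.02), and the median was -0.21 without entrapment 1. The vessel miRNAs miR-126, miR-126*, miR-143 and miR-145 were below 0 for 4 of 4 (median -0.08), but 3 of 4 were above 0 without decompression 1 (median 0.02) and under quantile normalization (0.01). The connective tissue list was below 0 for 3 of 5 (median -0.12), and above 0 for 5 of 5 without decompression 1 (median 0.11). The miR-30, miR-26, miR-15/16, miR-125 with miR-99/100, and miR-181 lists had medians from -0.06 to 0.00. MiR-204 differed by -0.18 with overlap, and decompression 3 was its lowest array at 708. In none of these lists did a member pass the test. Of the 23 lists, 14 had a median whose sign changed when 1 of the 6 arrays was left out, and 9 kept it.

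The miRNAs that the study singles out for the DRGs were chosen by it on these samples, against sham. Of the 7, 4 were above 0 and 3 below, 0 passed, none had groups without overlap, and the median was 0.03. MiR-9 differed by -0.04, miR-324-3p by 0.03 and miR-320 by 0.22. MiR-466b gave 116, 53.8 and 87.0 after entrapment and 62.1, 80.0 and 73.3 after decompression, and miR-672 gave 92.2, 37.1 and 72.2 against 51.5, 64.3 and 61.7. For both, the entrapment group alone spanned the whole range of the decompression group. MiR-207 had the widest spread of all between arrays of a group, with 44.5, 8.80 and 35.9 after entrapment against 18.3, 25.1 and 14.7, and entrapment 2 was the low array for all 3. Its difference was -0.35 ± 0.58 (SE), and 0.09 without entrapment 1.

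Opposite strands of one hairpin were read on the same arrays from the same RNA, so like signs cannot check a difference between the groups. Of 20 hairpins with both strands tested, 17 had differences of the same sign, the exceptions being miR-22, miR-376b and miR-409. Most of these differences were small. The strands of miR-142 stood at 0.59 and 0.53, while let-7d* stood at -0.63 and let-7d at -0.0047. Of the 45 control features on the array, 3 were without overlap and higher after decompression and 0 lower in the unscaled signal, and 5 and 0 after scaling. Of the 191 tested miRNAs, 6 were without overlap and higher and 0 lower when unscaled, and 11 and 2 after scaling (5.76% and 1.05%). One of the control features was the array's negative control, unscaled at 13.8, 9.54 and -6.95 after entrapment and 25.7, 19.1 and 15.8 after decompression. The part of this background in the dim miRNAs without overlap and in the larger number of detected miRNAs was not tested. Among the 20 control features with a mean signal over 20, the scaled log2 differences ran from -0.31 to 0.04.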

How the data were processed

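Total RNA of whole DRGs was hybridized to 1-colour Agilent rat miRNA arrays. The methods describe pCp-Cy3 ligation, the labels an amplification with Cy3-CTP. Per array and miRNA the authors deposited the total gene signal, a linear intensity from Agilent Feature Extraction 9.5.3 (version from the submitters' processing notes), summed over probes after background subtraction, along with a scanner error and a call of detection. No normalization between arrays had been applied to it. The processed signal table that the authors deposited holds the same intensities, each array divided by 1 constant, and served as an alternative. The LOWESS and GeneSpring steps were not repeated as such. Slide and scan could not be tested as batches.

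Each array was divided by its 75th percentile over the 350 miRNAs and returned to the geometric mean of the 6 percentiles, 76.9. Signals under a floor of 1.51 (the median of the lowest detected signal) were raised to it before log2. limma 3.58.1 in R 4.3.3 was fitted to the 191 tested miRNAs over 9 arrays, with the 3 denervation arrays adding only to the estimate of spread (6 residual and 2.46 prior degrees of freedom). Its p-values were two-sided, with Benjamini-Hochberg adjustment over all 191. They measure the spread between these arrays, whose number limits the precision. The fit was run on simulated normal data with the same spread for every miRNA. The spread of the real miRNAs differs, so that run does not show how the fit behaves for variable ones such as miR-207. Alternatives covered scaling, filter, floor, arrays in the fit, variance model, replicate block, fold rule, the processed table and leaving out each array. Figures were drawn with matplotlib 3.10.9.

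By rule, the text names the 10 miRNAs with the largest difference per direction among those without overlap, those detected on 3 arrays of one group and 0 of the other, the 10 highest signals, the 3 with the largest spread, opposite strands, and examples from lists. MiR-142-3p, let-7d*, miR-106b and several list members were named after their values were seen. The members, lists and tests were chosen with earlier results of these data known.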

Additional observations from a re-analysis of the deposited data

How the results depend on the processing

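No miRNA passed limma, and none was 2-fold different on every array, under any of the 27 other settings, including 1.5-fold on every array and 2-fold in the group means. Of the miRNAs with an unadjusted limma p under 0.05, 5 of 11, 3 of 10 and 10 of 10 were higher without entrapment 1, 2 and 3. Without decompression 1, 2 and 3 it was 3 of 5, 7 of 8 and 2 of 4. After quantile normalization it was 5 of 8, and under the other scalings all were higher. The counts without overlap, 11 higher and 2 lower, depended on the scaling. They were 6 and 0 with no scaling, 7 and 2 with the median, 10 and 7 after quantile normalization, and 7 and 6 after rank-consistent loess. In the processed table they were 11 and 1 with each column given to the scanner file it equals, and 1 and 11 under the table's own names, where every sign turns. Leaving out 1 of the 6 compared arrays gave 14 to 24 higher and 3 to 33 lower, the 24 without entrapment 3 and the 33 without entrapment 1 (the denervation arrays do not enter these counts, 11 and 2), where fewer arrays are left to overlap. The median difference stayed between -0.07 and 0.03 when 1 array was left out. Of 17 named differences, fitted in 19 to 23 settings of the scanner signals each, only that of miR-207 turned, from -1.08 without entrapment 2 to 0.0863 without entrapment 1. The difference in detected miRNAs kept its sign, at 4.33 to 11.3 without 1 array, and that of the 75th percentile, 1.42, ran from -1.54 to 5.83 without 1 array, being -1.54, -0.02 and -1.41 without entrapment 1, entrapment 2 and decompression 2.

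With the replicate number as a block (replicate block), 0 miRNAs passed in either direction, the smallest adjusted p was 0.993 and 7 had an unadjusted p under 0.05. Deviations of same-numbered arrays correlated at 0.38, -0.17 and 0.14, and those of differently numbered arrays at -0.48 to 0.34. With 3 arrays per group these values cannot tell whether the numbers pair the arrays.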
